A study of Homo sapiens with 6 samples.

Results

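The 39 transcripts described here encode cohesin, condensin and the anaphase promoting complex (APC/C) with some of their direct regulators. They were chosen by name, with earlier results of these data known, out of 60589 genes listed. Other regulators, such as CDC20, PTTG1 and UBE2S, are described apart from them. All 39 were found, each on 1 row, and all passed the filter on low values that left 14790 genes for testing. RNA was sequenced from SNU449 cells, a human liver tumor line, at day 3. By the titles, the treated group carried an siRNA against MAD2L1 (siMAD2L1, n = 3) and its reference a control siRNA (siControl, n = 3). The treatment field names other targets for some siMAD2L1 libraries, as given below. No other agent, genotype or time is named in the labels. Values are TPM, in which a transcript's level is scaled to its length and to a fixed library total. All libraries come from this cell line, and the labels do not say whether the numbered libraries are separate cultures, so a p-value here speaks of the differences between libraries, which may be technical.

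Cohesin is a ring of SMC1A, SMC3, RAD21 and a STAG subunit that holds sister chromatids together from S phase onward and forms loops in interphase chromatin. Condensin compacts chromosomes for mitosis and exists in the forms I and II, which share the SMC2 and SMC4 ATPases and differ in their other subunits. APC/C is the ubiquitin ligase that starts anaphase. With its activator CDC20 it marks securin (PTTG1) and cyclin B1 for destruction, which frees separase (ESPL1) to cut RAD21. MAD2L1 is the spindle checkpoint protein that binds CDC20 and restrains APC/C until chromosomes are attached. In this role MAD2L1 acts on APC/C through CDC20, at the level of protein.

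MAD2L1 mRNA measured 4.47, 0.795 and 2.40 TPM in siMAD2L1 replicates 1, 2 and 3, against 14.5, 13.7 and 13.9 TPM in siControl (exact two-sided permutation p = 0.1, the smallest that 3 libraries against 3 allow). The treatment field names MAD2L2 and MAD2L3 for siMAD2L1 replicates 2 and 3, although all titles name MAD2L1. MAD2L2 averaged 138 ± 15.3 TPM in siMAD2L1 and 145 ± 6.16 TPM in siControl (SD, n = 3 each), and its groups overlapped. Of 10 hepatocyte markers, 4 passed the filter on low values, and the list summed to 8.21 to 13.8 TPM in siMAD2L1 and 17.9 to 23.5 TPM in siControl. APOB and TTR were listed at 0 in every library and ALB stayed at or below 0.451 TPM. TF averaged 3.98 ± 0.477 TPM in siMAD2L1 and 8.83 ± 1.89 TPM in siControl, and FGB 2.77 ± 0.741 TPM in siMAD2L1 and 7.42 ± 1.13 TPM in siControl (SD, n = 3 each; limma adjusted p = 0.0181 and 0.0142). Both calls ended in 3 of 6 fits when single libraries were dropped (highest 0.0840 for TF and 0.0743 for FGB, each without siControl replicate 1). SERPINA1 and AFP, also above the filter, were not called. VIM averaged 10847 ± 306 TPM in siMAD2L1 and 9494 ± 443 TPM in siControl (SD, n = 3 each). The other mesenchymal markers overlapped between groups, CDH2 at 31.8 ± 4.19 and 34.3 ± 2.35 TPM and FN1 at 56.6 ± 9.12 and 55.4 ± 3.81 TPM, siMAD2L1 before siControl (SD, n = 3 each). The keratins KRT8 and KRT18 were present, at 163 ± 7.74 and 133 ± 9.14 TPM in siMAD2L1 and 222 ± 6.13 and 194 ± 5.73 TPM in siControl (SD, n = 3 each). The other epithelial markers were scarce. EPCAM lay under the filter at means of 0.056 TPM in siMAD2L1 and 0.323 TPM in siControl, and CDH1 averaged 0.774 and 1.27 TPM. The 4 leukocyte markers summed to 0.691 to 1.23 TPM in siMAD2L1 and 0.579 to 1.598 TPM in siControl. LYZ made up most of this, PTPRC stayed at or below 0.06 TPM, and CD3E was listed at 0 throughout.

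Against this background, 3 of the 39 transcripts fell in siMAD2L1 at a Benjamini-Hochberg adjusted p under 0.05 in limma: NCAPD2, NCAPD3 and CDCA5. That is 7.69% of the members, near the 6.23% of all tested genes that were called lower. None was called higher by limma (0 of 39, and 0 with an unadjusted p under 0.05), where 3.55% of all genes were. In 9 of the 39 (23.1%) every siMAD2L1 library lay below every siControl library, against 21.5% of all genes, and in 0 every library lay above, against 11.3%. The median log2 fold change was -0.16 over the members and -0.08 over all genes tested. A share near that of all genes is not a result about the members. The balance of calls over all genes depended on the scaling: 921 lower and 525 higher as deposited, 715 and 648 after upper-quartile scaling and 704 and 688 after quantile normalization. Removing a trend with transcript length gave 622 lower and 784 higher. The share of TPM from mitochondrially encoded genes also differed, at 9.21% to 10.9% in siMAD2L1 and 15.2% to 15.3% in siControl, and its part in the results was not tested.

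Promoter windows of the 3 transcripts that fell are shown because promoters of genes expressed in S to M phase often carry 3 short elements, which were searched on both strands. The first is the cell cycle genes homology region (CHR, searched as TTTGAA), the second the CCAAT box bound by NF-Y and the third an E2F site (searched as TTTNNCGC). Windows run from 250 bases before to 50 after a transcription start and come from RefSeq on GRCh38.p14. They lie at chr12:6493852-6494151 (plus strand) for NCAPD2, chr11:134223918-134224217 (minus strand) for NCAPD3 and chr11:65083991-65084290 (minus strand) for CDCA5. Capitals mark matches; ATTGG is a CCAAT box and GCGGGAAA an E2F site read on the other strand. For NCAPD3, RefSeq lists 2 windows, and the one printed was picked because it held more of the 3 elements. The other held none of these letters, and the data do not tell which start was used.
NCAPD2: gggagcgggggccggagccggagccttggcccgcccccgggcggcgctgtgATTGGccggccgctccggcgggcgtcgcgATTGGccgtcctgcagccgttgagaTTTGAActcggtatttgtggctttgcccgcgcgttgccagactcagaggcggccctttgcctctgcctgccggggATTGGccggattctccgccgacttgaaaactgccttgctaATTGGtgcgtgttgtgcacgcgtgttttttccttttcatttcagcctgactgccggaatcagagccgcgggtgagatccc
NCAPD3: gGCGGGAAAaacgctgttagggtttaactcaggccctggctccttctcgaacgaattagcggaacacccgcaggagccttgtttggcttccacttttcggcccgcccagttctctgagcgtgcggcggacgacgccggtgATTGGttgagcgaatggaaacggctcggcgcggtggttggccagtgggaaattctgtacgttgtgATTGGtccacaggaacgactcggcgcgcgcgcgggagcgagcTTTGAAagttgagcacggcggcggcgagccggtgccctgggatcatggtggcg
CDCA5: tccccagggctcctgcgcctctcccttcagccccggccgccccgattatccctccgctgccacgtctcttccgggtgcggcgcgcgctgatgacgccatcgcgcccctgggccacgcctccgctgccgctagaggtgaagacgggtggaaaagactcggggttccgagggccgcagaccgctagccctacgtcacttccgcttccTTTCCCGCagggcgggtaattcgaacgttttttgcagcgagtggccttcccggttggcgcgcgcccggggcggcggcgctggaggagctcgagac

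The NCAPD2 window held a CHR match starting 145 bases before the start and 4 CCAAT boxes, at 199, 170, 70 and 30 bases before it. The NCAPD3 window held a CHR match 3 bases before the start, CCAAT boxes at 110 and 45 and an E2F match at 249. The CDCA5 window held an E2F match 45 bases before the start and neither of the others. RefSeq windows were found for 34 of the 39 members. Here and over all genes, a gene was counted as holding an element if any of its windows did. CHR letters stood in 14 of these 34 (18.2% of 27305 genes with a window), CCAAT in 16 (39.7% of all) and the E2F letters in 12 (8.23% of all). Among the 12 members whose mRNA is known to rise in S to M phase, 10 had a window and 8 of these held CHR letters, against 6 of 24 for the other members. For the other elements the split differed little, with CCAAT in 5 of 10 against 11 of 24 and the E2F letters in 4 of 10 against 8 of 24. No overlap between matches of different elements was found in the 3 windows printed, and a match is a run of letters, not a shown binding site.

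**Figure D1:**
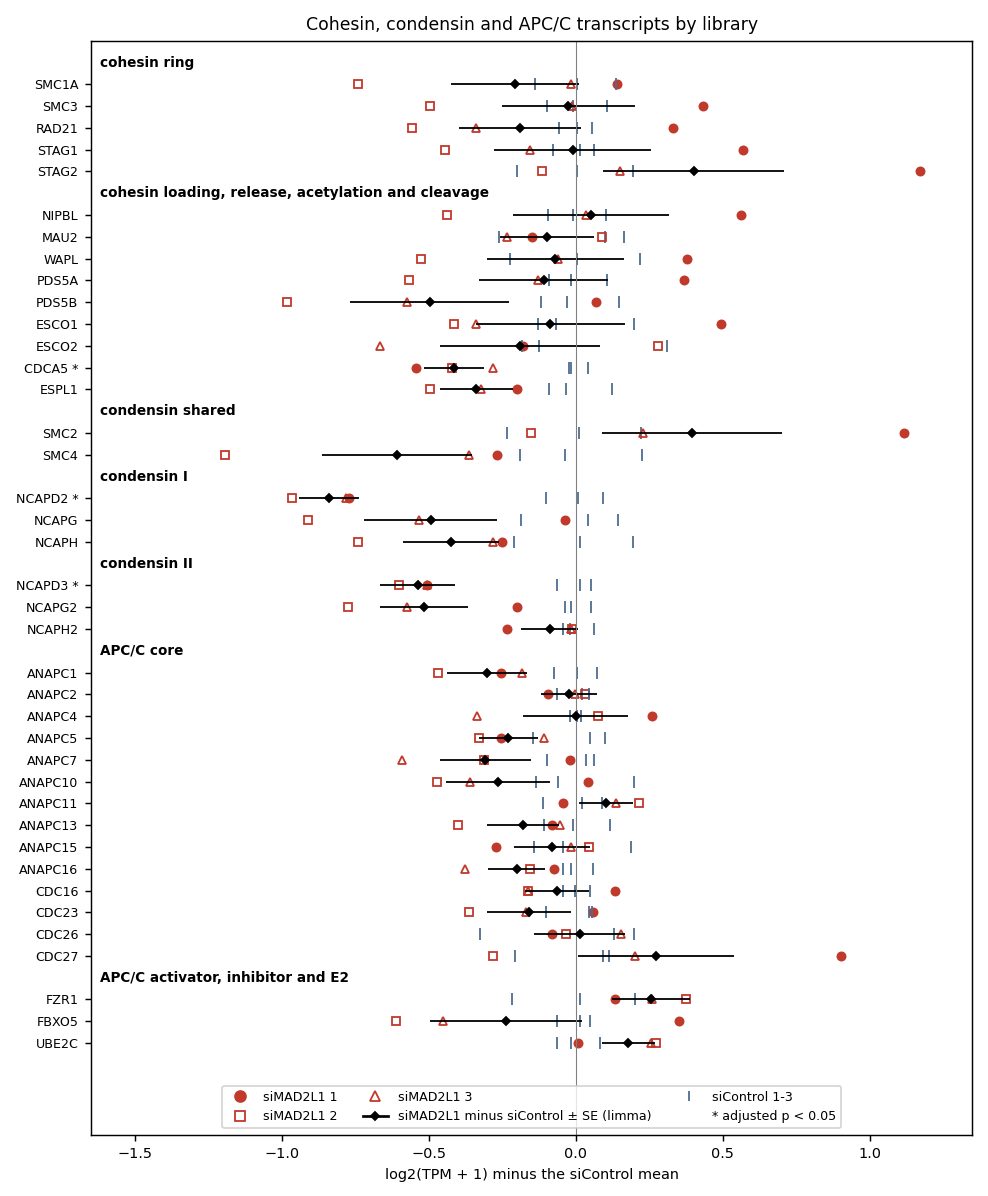
Difference from the siControl mean in log2(TPM + 1) for each of the 39 transcripts, by role. Red symbols are the 3 siMAD2L1 libraries, black diamonds the limma difference with its SE and blue ticks the siControl libraries; asterisks mark NCAPD2, NCAPD3 and CDCA5, and siMAD2L1 replicate 1 (filled circles) lies farthest right in many rows of the cohesin ring.

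Condensin held 2 of the 3 calls, 1 among the 3 specific subunits of each form (33.3%, beside 6.23% of all genes called lower). Lists this short give no result about condensin. NCAPD2 (ENSG00000010292, chromosome 12 from 6493356 to 6531955, plus strand, GRCh38), the HEAT-repeat subunit of condensin I, measured 25.2, 21.9 and 25.0 TPM in siMAD2L1, against 44.0, 46.7 and 40.7 TPM in siControl. All siMAD2L1 libraries lay far below all siControl libraries, with little spread in either group. NCAPD2 stood at 54.9% of its siControl mean (log2 fold change -0.84, SE 0.102, limma adjusted p = 0.00398), and it was the only member called under each of the 19 alternatives run. In 1 of these, siMAD2L1 was a single library without a spread of its own. MRPL51, a mitochondrial ribosomal protein gene on the opposite strand, shares 486 exon bases (7.49%) with NCAPD2, and the strand setting of the counting is not given. Reads of the more abundant MRPL51 could thus have been counted for NCAPD2, whose level is uncertain to that extent. MRPL51 itself averaged 109 ± 3.08 TPM in siMAD2L1 and 122 ± 14.7 TPM in siControl (SD, n = 3 each; log2 fold change -0.16, limma adjusted p = 0.364).

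The other condensin I subunits lay lower without passing the test. NCAPH, the kleisin that closes the ring, measured 35.0, 24.6 and 34.3 TPM in siMAD2L1, against 36.1, 42.3 and 48.1 TPM in siControl (log2 fold change -0.43, SE 0.162, limma adjusted p = 0.142). The groups did not overlap, but siMAD2L1 replicate 1 and siControl replicate 1 nearly met. NCAPG, the other HEAT-repeat subunit, measured 9.87, 4.93 and 6.71 TPM in siMAD2L1, against 11.3, 10.5 and 8.80 TPM in siControl. Here siMAD2L1 replicate 1 lay inside the siControl range (log2 fold change -0.49, SE 0.227, limma adjusted p = 0.214). LCORL on the opposite strand shares 33.1% of the NCAPG exon bases at a mean of 2.44 TPM, so the NCAPG level is uncertain too. Added over its 3 specific subunits, condensin I came to 62.5 ± 9.79 TPM in siMAD2L1 and 96.2 ± 4.24 TPM in siControl (SD, n = 3 each), which is 65.0% of the siControl mean.

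In condensin II, NCAPD3 (ENSG00000151503, chromosome 11 from 134150119 to 134225454, minus strand, GRCh38), the counterpart of NCAPD2, measured 6.29, 5.83 and 6.29 TPM in siMAD2L1, against 9.73, 9.47 and 8.90 TPM in siControl. It had the smallest spread of the 8 condensin transcripts in siMAD2L1, and the groups stood well apart. NCAPD3 fell to 65.5% of its siControl mean (log2 fold change -0.54, SE 0.128, limma adjusted p = 0.0380). Leaving out single libraries ended the call in 5 of 6 fits (highest adjusted p 0.157, without siControl replicate 1), at log2 fold changes between -0.57 and -0.51. NCAPG2 measured 26.6, 17.5 and 20.3 TPM in siMAD2L1, against 30.0, 31.9 and 30.4 TPM in siControl. Its groups did not overlap (log2 fold change -0.52, SE 0.149, limma adjusted p = 0.0686), and the adjusted p was 0.00833 without siMAD2L1 replicate 1. NCAPH2, the kleisin of condensin II, measured 33.4, 39.1 and 38.998 TPM in siMAD2L1, against 38.97, 41.2 and 38.3 TPM in siControl (log2 fold change -0.09, SE 0.0979, limma adjusted p = 0.610). Its groups overlapped. The 3 specific subunits together came to 64.8 ± 2.02 TPM in siMAD2L1 and 79.6 ± 2.62 TPM in siControl (SD, n = 3 each), which is 81.4% of the siControl mean.

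The shared ATPases had log2 fold changes of opposite sign, and neither was called. SMC4 measured 9.74, 4.65 and 9.05 TPM in siMAD2L1, against 14.1, 10.3 and 11.6 TPM in siControl, so every siMAD2L1 library lay below every siControl library (log2 fold change -0.61, SE 0.254, limma adjusted p = 0.176). SMC2 measured 18.1, 6.93 and 9.32 TPM in siMAD2L1, against 7.89, 9.28 and 6.50 TPM in siControl. Only siMAD2L1 replicate 1 was clearly above the controls, replicate 2 lay within their range, and SMC2 was not called (log2 fold change 0.40, SE 0.306, limma adjusted p = 0.455; 0.04 without siMAD2L1 replicate 1). Within each library, the ratio of SMC2 to SMC4 was 1.86, 1.49 and 1.03 in siMAD2L1 and 0.558, 0.897 and 0.560 in siControl.

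**Figure D2:**
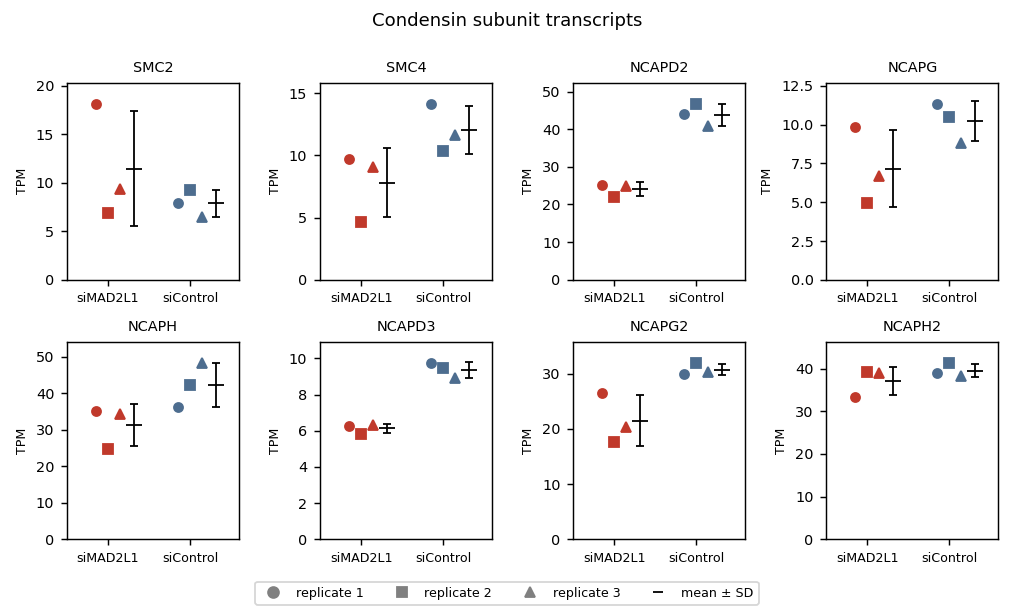
TPM of the 8 condensin transcripts in each library (symbols are replicates, bars the group mean and SD, siMAD2L1 on the left; axes start at 0). NCAPD2 and NCAPD3 show narrow, separate groups, while SMC2 and NCAPG spread widely in siMAD2L1 because replicate 1 lies high and replicate 2 low.

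None of the 5 cohesin ring transcripts was called by limma, and none had an unadjusted p under 0.05. RAD21, the kleisin cut at anaphase, measured 54.0, 28.7 and 33.5 TPM in siMAD2L1, against 42.8, 44.4 and 41.0 TPM in siControl (log2 fold change -0.19, SE 0.207, limma adjusted p = 0.609). The knockdown libraries stood on either side of the tight control group, replicate 1 above it and the others below. Without siMAD2L1 replicate 1, RAD21 passed as lower (log2 fold change -0.45, adjusted p = 0.0245). SMC1A measured 40.3, 21.4 and 36.1 TPM in siMAD2L1, against 33.1, 40.3 and 36.7 TPM in siControl (log2 fold change -0.21, SE 0.217, limma adjusted p = 0.592). STAG2, the more abundant STAG subunit per length, measured 26.1, 10.1 and 12.4 TPM in siMAD2L1, against 11.1, 12.8 and 9.50 TPM in siControl (log2 fold change 0.40, SE 0.309, limma adjusted p = 0.454). Its high value was again that of siMAD2L1 replicate 1, the others lying in the control range, and without that library the difference was 0.02.

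SMC3 averaged 10.1 ± 3.51 TPM in siMAD2L1 and 9.96 ± 0.775 TPM in siControl, and STAG1 3.68 ± 1.78 TPM in siMAD2L1 and 3.51 ± 0.223 TPM in siControl (SD, n = 3 each). The STAG1 exons share 21.2% of their bases with PCCB on the opposite strand, which is far more abundant at a mean of 33.3 TPM, so the STAG1 level is uncertain. Summed, the ring came to 140, 69.3 and 94.9 TPM in siMAD2L1, against 100.1, 112 and 99.9 TPM in siControl. The knockdown libraries thus spanned a far wider range than the controls around a mean close to theirs (97.5% of siControl).

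Among the 9 genes for loading, release, acetylation and cleavage of cohesin, 1 fell and 8 did not pass. That 1 is 11.1% of so short a list, beside 6.23% of all genes called lower, and is no result about the list. CDCA5 (ENSG00000146670, chromosome 11 from 65066300 to 65084164, minus strand, GRCh38), which encodes sororin, the S and G2 phase protector of cohesin against WAPL, measured 22.9, 25.1 and 27.7 TPM in siMAD2L1, against 33.3, 34.9 and 33.5 TPM in siControl. The groups did not overlap, and here siMAD2L1 replicate 1 was the lowest library. CDCA5 fell to 74.4% of its siControl mean (log2 fold change -0.42, SE 0.102, limma adjusted p = 0.0421). Leaving out single libraries ended the call in 5 of 6 fits (highest adjusted p 0.141, without siControl replicate 1), and so did quantile normalization (0.0919), upper-quartile scaling (0.0890) or removal of a transcript-length trend (0.118).

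ESPL1, the separase protease, measured 15.5, 12.4 and 14.1 TPM in siMAD2L1, against 16.8, 19.6 and 17.5 TPM in siControl. All knockdown libraries were lower, without a call (log2 fold change -0.34, SE 0.125, limma adjusted p = 0.132). PDS5B, which with WAPL can open the ring, had 5.06, 1.92 and 2.88 TPM in siMAD2L1, against 4.33, 5.41 and 4.66 TPM in siControl (log2 fold change -0.50, SE 0.271, limma adjusted p = 0.289). siMAD2L1 replicate 1 lay among the controls and the others below them. WAPL itself averaged 12.1 ± 4.04 TPM in siMAD2L1 and 12.4 ± 2.03 TPM in siControl (SD, n = 3 each). PDS5A, the close relative of PDS5B, measured 21.8, 10.9 and 15.1 TPM in siMAD2L1, against 16.5, 18.0 and 15.6 TPM in siControl (log2 fold change -0.11, SE 0.220, limma adjusted p = 0.797). siMAD2L1 replicate 1 lay above the control range and the other knockdown libraries below it. The loader NIPBL was low at 4.87, 1.93 and 3.07 TPM in siMAD2L1, against 3.27, 2.95 and 2.73 TPM in siControl, and its partner MAU2 averaged 10.9 ± 1.40 TPM in siMAD2L1 and 11.8 ± 1.94 TPM in siControl (SD, n = 3 each).

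The acetyltransferases that lock cohesin after loading, ESCO1 and ESCO2, were not called. ESCO1 averaged 6.58 ± 2.84 TPM in siMAD2L1 and 6.74 ± 0.960 TPM in siControl, and the S phase enzyme ESCO2 3.46 ± 1.44 TPM in siMAD2L1 and 3.97 ± 0.971 TPM in siControl (SD, n = 3 each; limma adjusted p = 0.867 and 0.703). In ESCO2, siMAD2L1 replicate 2 was the second highest of the 6 libraries at 4.96 TPM, unlike in the ring.

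None of the 14 APC/C core subunits was called by limma, and none had an unadjusted p under 0.05. Their log2 fold changes ran from -0.31 (ANAPC7) to 0.27 (CDC27) with a median of -0.12. ANAPC11, the RING subunit that recruits the ubiquitin-loaded enzyme, was the most abundant per length at 239, 287 and 271 TPM in siMAD2L1, against 263, 228 and 251 TPM in siControl (log2 fold change 0.10, SE 0.0915, limma adjusted p = 0.522). ANAPC2, the cullin that holds ANAPC11, averaged 25.3 ± 1.17 TPM in siMAD2L1 and 25.8 ± 1.04 TPM in siControl (SD, n = 3 each). These 2 catalytic subunits overlapped between groups.

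CDC27, a tetratricopeptide scaffold subunit, measured 83.0, 35.9 and 50.6 TPM in siMAD2L1, against 38.0, 47.6 and 47.0 TPM in siControl (log2 fold change 0.27, SE 0.267, limma adjusted p = 0.561). As for STAG2 and SMC2, siMAD2L1 replicate 1 was by far the highest, replicate 3 lay a little above the controls and replicate 2 below them. Without replicate 1 the CDC27 difference was -0.04. ANAPC16 measured 87.5, 82.5 and 70.7 TPM in siMAD2L1, against 89.3, 91.0 and 95.9 TPM in siControl, and ANAPC1, the large scaffold subunit, 7.91, 6.68 and 8.37 TPM in siMAD2L1, against 10.2, 9.66 and 9.09 TPM in siControl. In both, every knockdown library was lower, and neither passed (log2 fold changes -0.20 and -0.30, SE 0.0965 and 0.137, limma adjusted p = 0.231 and 0.208). One of the rows for the pseudogene ANAPC1P2 was listed at 1.53 to 2.94 TPM over the 6 libraries, so reads may be split between it and ANAPC1. ANAPC7, a scaffold subunit related to CDC27, measured 21.1, 17.1 and 13.9 TPM in siMAD2L1, against 22.0, 19.96 and 22.4 TPM in siControl (limma adjusted p = 0.253).

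The remaining core subunits overlapped between groups. ANAPC5 averaged 60.4 ± 4.84 TPM in siMAD2L1 and 71.1 ± 6.36 TPM in siControl, ANAPC13 33.0 ± 4.38 and 37.3 ± 2.97 TPM, CDC16 36.0 ± 4.53 and 37.6 ± 1.22 TPM, and ANAPC15 33.1 ± 3.86 and 35.1 ± 4.36 TPM, siMAD2L1 before siControl in each (SD, n = 3 each). ANAPC4, ANAPC10, CDC23 and CDC26 completed the core at means of 7.28 to 24.2 TPM in siMAD2L1 and 7.17 to 24.3 TPM in siControl. Over all 14 the sum was 682, 656 and 660 TPM in siMAD2L1, against 674, 650 and 701 TPM in siControl. The sums of the groups overlapped.

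The activator, inhibitor and E2 of APC/C were not called either. FZR1 (CDH1), the activator of late mitosis and G1, measured 25.7, 30.5 and 28.1 TPM in siMAD2L1, against 23.5, 27.0 and 19.9 TPM in siControl (log2 fold change 0.26, SE 0.132, limma adjusted p = 0.264). UBE2C, the E2 that starts ubiquitin chains, was the most abundant of all members at 290, 349 and 345 TPM in siMAD2L1, against 306, 276 and 285 TPM in siControl (log2 fold change 0.18, SE 0.0908, limma adjusted p = 0.256). siMAD2L1 replicates 2 and 3 lay above every control and replicate 1 among them, and without replicate 1 UBE2C passed as higher (log2 fold change 0.27, adjusted p = 0.0374). FBXO5 (EMI1), the interphase inhibitor, had 6.62, 2.90 and 3.36 TPM in siMAD2L1, against 5.17, 4.71 and 5.02 TPM in siControl, with replicate 1 above and the others below the control range (log2 fold change -0.24, SE 0.258, limma adjusted p = 0.605).

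Genes that work beside these complexes were read from lists. Of 11 APC/C partners and cohesin protectors, 5 fell (45.5%, beside 6.23% of all genes called lower) and 6 did not pass, with a median log2 fold change of -0.51. CDC20, the mitotic activator, measured 33.9, 38.9 and 47.2 TPM in siMAD2L1, against 86.2, 79.7 and 87.2 TPM in siControl (log2 fold change -1.07, SE 0.124, limma adjusted p = 0.00344). Its groups stood well apart. PTTG1, securin, measured 85.6, 93.3 and 87.7 TPM in siMAD2L1, against 145, 142 and 158 TPM in siControl (log2 fold change -0.73, SE 0.0782, limma adjusted p = 0.00256). HDAC8, the deacetylase that recycles SMC3, measured 13.6, 10.4 and 11.8 TPM in siMAD2L1, against 17.0, 19.0 and 18.6 TPM in siControl (log2 fold change -0.57, SE 0.129, limma adjusted p = 0.0325), a call that ended in 5 of 6 fits when single libraries were dropped (highest 0.122, without siControl replicate 3). All 3 had groups that did not overlap. MAD2L1BP, which with TRIP13 takes MAD2L1 out of checkpoint complexes, measured 13.7, 13.0 and 13.0 TPM in siMAD2L1, against 24.5, 22.6 and 23.6 TPM in siControl (log2 fold change -0.79, SE 0.101, limma adjusted p = 0.00475). TRIP13 measured 15.5, 13.4 and 13.8 TPM in siMAD2L1, against 20.6, 20.2 and 21.0 TPM in siControl (log2 fold change -0.51, SE 0.107, limma adjusted p = 0.0263), and its call ended in 5 of 6 such fits (highest 0.115, without siControl replicate 1). UBE2S, the E2 that extends chains, SGO1, SGO2, CTCF, BUB1B and BUB3 did not pass.

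Of 17 genes whose proteins APC/C is known to mark for destruction, 7 fell and 10 did not pass, with a median log2 fold change of -0.56. The share called lower was 41.2%, beside 6.23% of all genes. CCNB1, cyclin B1, averaged 60.0 ± 3.22 TPM in siMAD2L1 and 108 ± 7.36 TPM in siControl (SD, n = 3 each; log2 fold change -0.83, SE 0.0862, limma adjusted p = 0.00222). The mitotic kinase NEK2 measured 16.3, 10.8 and 15.4 TPM in siMAD2L1, against 30.2, 28.8 and 27.6 TPM in siControl. The mitotic kinase PLK1 measured 34.1, 39.7 and 44.0 TPM in siMAD2L1, against 77.7, 68.1 and 70.1 TPM in siControl (log2 fold change -0.86, SE 0.113, limma adjusted p = 0.00514). Neither overlapped between groups. The kinases AURKA and AURKB, the spindle factor TPX2 and the origin loader CDC6 also fell, and over the 7 the log2 fold changes ran from -0.996 (NEK2) to -0.52 (AURKB). Dropping single libraries ended the AURKB call in 4 of 6 fits (highest 0.141, without siControl replicate 1) and the CDC6 call in 5 (0.143, without siControl replicate 3). NEK2 and TPX2 each failed in 1 such fit (0.0555 without siControl replicate 1 and 0.0510 without siControl replicate 3). These are mRNA levels, and destruction by APC/C acts on the proteins.

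**Figure D3:**
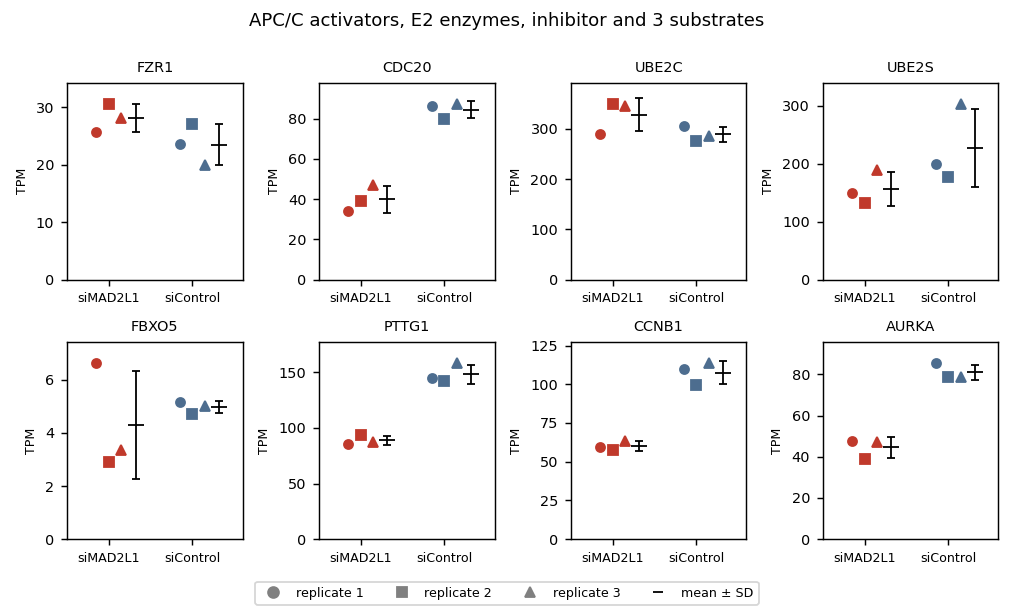
TPM in each library of the APC/C activators FZR1 and CDC20, the E2 enzymes UBE2C and UBE2S, the inhibitor FBXO5 and the substrates PTTG1, CCNB1 and AURKA (symbols are replicates, bars the mean and SD, siMAD2L1 on the left; axes start at 0). CDC20, PTTG1, CCNB1 and AURKA form separate groups, whereas FZR1, UBE2C, UBE2S and FBXO5 overlap.

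In the third SMC complex, which acts in DNA repair, 1 of 9 genes fell (11.1%, beside 6.23% of all genes, and no result about so short a list). That was NSMCE1, a RING subunit, at 28.2 ± 1.53 TPM in siMAD2L1 and 38.3 ± 3.56 TPM in siControl (SD, n = 3 each; log2 fold change -0.43, SE 0.103, limma adjusted p = 0.0399). Its call ended in 5 of 6 fits when single libraries were dropped (highest 0.125, without siControl replicate 3). SLF1 and SLF2, which recruit the complex to damage, had the largest differences and did not pass, SLF1 at 1.87, 0.354 and 0.519 TPM in siMAD2L1, against 1.21, 1.53 and 2.39 TPM in siControl (log2 fold change -0.56, SE 0.341, limma adjusted p = 0.341). SLF2 measured 16.2, 10.9 and 10.1 TPM in siMAD2L1, against 16.6, 18.5 and 16.2 TPM in siControl (log2 fold change -0.46, SE 0.177, limma adjusted p = 0.147). Of 6 genes of mitotic chromosome structure 2 fell (33.3%, beside 6.23% of all genes). MKI67, the chromosome surface protein Ki-67, measured 28.1, 17.0 and 23.2 TPM in siMAD2L1, against 35.3, 36.9 and 44.3 TPM in siControl (log2 fold change -0.77, SE 0.181, limma adjusted p = 0.0376). HMGB1, a DNA-bending protein, measured 182, 139 and 145 TPM in siMAD2L1, against 236, 217 and 239 TPM in siControl (log2 fold change -0.57, SE 0.109, limma adjusted p = 0.0184). Both calls ended in 5 of 6 such fits, with the highest adjusted p at 0.135 for MKI67 without siControl replicate 3 and 0.0846 for HMGB1 without siControl replicate 1. TOP2A, the topoisomerase that works with condensin, measured 24.4, 8.58 and 11.5 TPM in siMAD2L1, against 25.1, 30.9 and 21.6 TPM in siControl, and did not pass (log2 fold change -0.88, SE 0.330, limma adjusted p = 0.139). The meiotic forms were scarce: SMC1B and RAD21L1 lay under the filter, and STAG3, REC8 and FBXO43 were not called (0 of 3, and 0 with an unadjusted p under 0.05 in limma). STAG3 measured 1.84, 0.934 and 1.23 TPM in siMAD2L1, against 3.47, 1.26 and 2.66 TPM in siControl and FBXO43, the meiotic APC/C inhibitor, 0.905, 0.489 and 0.621 TPM in siMAD2L1, against 1.38, 1.47 and 1.31 TPM in siControl.

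The members split by whether their mRNA is known to rise in S to M phase of cycling cells. Of the 12 that do, 3 were called lower and 7 had groups that did not overlap, all lower, with a median log2 fold change of -0.42. These are 25.0% and 58.3% of the 12, beside 6.23% and 21.5% of all genes tested. The 12 were chosen from background knowledge, but with earlier results of these data known. The shares thus describe the members and do not test a link to the cell cycle. Of the other 27, 0 were called by limma, 0 had an unadjusted p under 0.05, and 2 (7.41%) had groups that did not overlap, with a median of -0.09. Summed, the 12 periodic members came to 469, 481 and 504 TPM in siMAD2L1, against 518, 501 and 500 TPM in siControl, and these sums overlapped. UBE2C, which was not called, made up most of them. Of the 12 proliferation markers, 8 fell (66.7%, beside 6.23% of all genes called lower). The summed level of these markers was 464, 413 and 484 TPM in siMAD2L1, against 758, 725 and 793 TPM in siControl. The 8 were MKI67, the cyclins CCNB1 and CCNB2, the replication factors PCNA, MCM2, MCM3 and MCM6, and BIRC5 (survivin), at log2 fold changes from -1.23 (MCM3) to -0.71 (MCM2). The part of these markers in the lower condensin and CDCA5 levels was not tested, and in bulk RNA fewer cells in S to M phase and less mRNA per cell cannot be told apart. The other 5 periodic members, UBE2C, SMC2, NCAPG, FBXO5 and ESCO2, overlapped between groups.

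The members' spread was itself uneven. The coefficient of variation had a median of 20.9% in siMAD2L1 and 7.95% in siControl, and it was the larger in siMAD2L1 for 33 of 39 members, against 67.0% of all genes. siMAD2L1 replicate 2 was the lowest of the 6 libraries for 23 members (59.0%, against 29.9% of all genes), and replicate 1 the highest for 15 (38.5%, against 30.3%). Medians over the 5 ring transcripts were 0.43, -0.50 and -0.02 in siMAD2L1 replicates 1, 2 and 3 as log2 differences from the siControl mean, and over condensin I -0.25, -0.91 and -0.53. Condensin I was thus below the control mean in each library, while the ring changed side.

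The level of long transcripts followed that order. Members have spliced lengths from 1175 bases (CDC26) to 13987 bases (ANAPC1). Over 14363 tested genes with a length in GENCODE 29, those of at least 7036 bases had median log2 differences from the siControl mean of 0.15, -0.20 and -0.11 in siMAD2L1 replicates 1, 2 and 3. Those of at most 2622 bases had -0.10, -0.10 and -0.13. In siControl replicates 1, 2 and 3 the long genes had -0.01, 0.07 and -0.06. The Spearman correlation of the difference with length was 0.19, -0.07 and 0.04 in siMAD2L1 and -0.04, 0.13 and -0.12 in siControl. Length trends were thus present among the siControl libraries too. With a length trend removed, the members' median was -0.08 and that of all genes 0.0032, NCAPD2 stayed called (log2 fold change -0.78, adjusted p = 0.0035), NCAPG2 became so (adjusted p = 0.0341) and NCAPD3 did not pass (adjusted p = 0.0522). MAD2L1 was highest in replicate 1 and lowest in replicate 2, and its part and that of length in the spread were not tested.

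The scaling of a library cancels in the ratio of 2 of its transcripts, and 10 pairs of related genes, chosen after the data were seen, were compared. In 6 the groups did not overlap, each at the smallest exact two-sided permutation p of 0.1 (0.167 after Benjamini-Hochberg adjustment over the 10), so none could pass 0.05. The ratio of FZR1 to CDC20, the late against the early APC/C activator, was 0.756, 0.784 and 0.596 in siMAD2L1 and 0.273, 0.339 and 0.229 in siControl, averaging 0.712 ± 0.102 and 0.280 ± 0.0554 (SD, n = 3 each). UBE2C to UBE2S, the chain-starting against the chain-extending E2, averaged 2.14 ± 0.452 in siMAD2L1 and 1.34 ± 0.347 in siControl (SD, n = 3 each). SMC2 to SMC4 averaged 1.46 ± 0.416 in siMAD2L1 and 0.672 ± 0.195 in siControl (SD, n = 3 each).

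Ratios were also taken between alternative cohesin subunits. STAG2 to STAG1 was 4.60, 4.39 and 4.07 in siMAD2L1 and 3.40, 3.46 and 2.68 in siControl, and PDS5A to PDS5B was 4.31, 5.68 and 5.25 in siMAD2L1 and 3.80, 3.33 and 3.34 in siControl. In both, the 3 knockdown libraries lay above the 3 controls although the levels of STAG2, STAG1, PDS5A and PDS5B overlapped, and the PCCB overlap noted above touches the STAG1 ratio. NCAPD2 to NCAPD3 was lower at 4.01, 3.75 and 3.97 in siMAD2L1 and 4.52, 4.93 and 4.58 in siControl, without overlap. The ratios of NCAPG to NCAPG2, NCAPH to NCAPH2, ESCO2 to ESCO1 and WAPL to CDCA5 overlapped between groups (exact permutation p = 0.8, 0.3, 1 and 0.4).

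**Figure D4:**
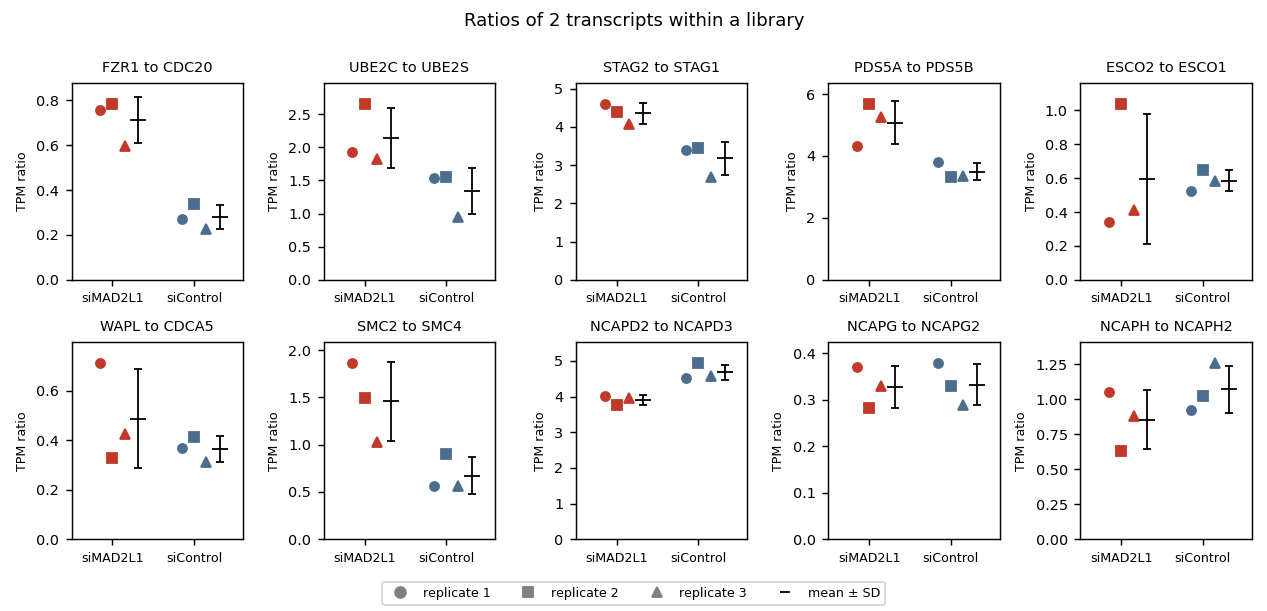
Ratio of TPM of 2 transcripts within each library for 10 pairs (symbols are replicates, bars the mean and SD, siMAD2L1 on the left; axes start at 0). The groups stand apart for FZR1 to CDC20, UBE2C to UBE2S, STAG2 to STAG1, PDS5A to PDS5B, SMC2 to SMC4 and NCAPD2 to NCAPD3, and overlap for the other 4.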

How the data were processed

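The authors deposited TPM, 1 column per library, each summing to 1000000, so read depth and counting error are unknown. Per the submitters' processing notes, fastp, HISAT2, DESeq2 1.16.1 and hg38 were used; for the counter, annotation and strand setting nothing is stated in the labels. The file pairs identifiers with symbols; 24 members carry an identifier of an assembled transcript joined to the Ensembl identifier and 15 the Ensembl identifier alone. Of 24 rows for pseudogenes named after members, 16 were at 0 in every library and 2 exceeded 1 TPM in any.

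Columns were matched to titles by treatment name and number. limma 3.58.1 (R 4.3.3) with an intensity trend was fitted to log2(TPM + 1) for 14790 genes with a mean of at least 1 TPM, siMAD2L1 against siControl, without covariates. Log2 fold changes are on this scale and understate changes of low genes. p-values were Benjamini-Hochberg adjusted over all genes, with calls under 0.05. The fit was tested on simulated data. Positions, exon overlaps and spliced lengths came from GENCODE 29 (GRCh38), promoters from RefSeq. Python 3.11.15 was used for ratios, exact permutation tests, motif counts and plots.

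Members, gene lists and tests were chosen with earlier results of these data known. All members are named; values in every library are given for called members, those with the largest changes or highest levels in each role, and those whose groups do not overlap. Of the pathway lists outside the members, called genes and the largest changes are named; proliferation and cell type markers are given mainly as summed levels.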

Additional observations from a re-analysis of the deposited data

How the results depend on the processing

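Across 19 alternatives, 633 of 736 values for single members kept their direction and their side of the threshold, 23 lost a call, 22 gained one, 58 uncalled values changed sign and 0 called values were reversed. The number of members called lower (3) was 1 without a filter, with quantile normalization and at an adjusted p of 0.01, 12 with library weights and between 1 and 8 with a library left out. It was 1 when each of 5 libraries was left out, and 8 without siMAD2L1 replicate 1, namely RAD21, PDS5B, CDCA5, NCAPD2, NCAPG, NCAPD3, NCAPG2 and ANAPC7. Calls over all genes rose in the same fits. With library weights 3346 of 14790 genes were called lower and 1514 higher. Without siMAD2L1 replicate 1 these were 1701 and 709 of 14834. The larger member counts are thus no result about the members. The number called higher (0) was 1 with library weights, 3 with siMAD2L1 replicate 1 alone (STAG2, SMC2 and CDC27) and between 0 and 1 with a library left out. Over all genes, 1446 were called; this was 727 without a filter, 952 without a trend, 4860 with library weights, 359 at an adjusted p of 0.01 and between 356 and 2410 with a library left out. The members' median lay between -0.27 and -0.05 with a library left out, and between -0.21 and -0.05 over the scalings, with the median of all genes between -0.13 and 0.0032. The cause of these shifts was not tested. With the replicate number as a block, 1 member (NCAPD2) and 868 genes were called. Deviations of same-numbered libraries had correlations of 0.0190, 0.00898 and 0.0631 over 14790 genes. siMAD2L1 replicate 1 correlated best with siControl replicate 2 (0.0336), and replicates 2 and 3 with the siControl library of their own number. Values this small do not show a pairing and, with 3 libraries a group, cannot exclude it. The summed TPM of the ring was 135% of siControl in siMAD2L1 replicate 1 alone and 79.0% without it, and that of the shared condensin ATPases 140% and 75.2%. With 3 libraries a group, no depth and an unknown strand setting, changes of low transcripts such as NIPBL, STAG1 and ESCO2 could not be told from the spread.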
